A study of Mus musculus with 12 samples.

Results

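Of the 55487 genes in the deposited count table, 5 are described here across 12 RNA sequencing libraries of Min6 cells, a beta cell line derived from a mouse insulinoma. They are Fxyd7, Lyve1, Muc4, Nme9 and Grrp1, and they were chosen by their measured fold changes, which are among the largest falls when the FoxO1 inhibitor AS1842856 was added to solvent or to loperamide. Those 2 contrasts are therefore given as a description, with no test. The FoxOi_Loperamide group received 1 µM of the inhibitor together with 5 µM of loperamide, an opioid receptor agonist. The FoxOi group received 1 µM of the inhibitor alone, the Loperamide group 5 µM of loperamide alone, and the DMSO group the solvent. All 4 groups were treated for 48 h, with 3 libraries each, and every result rests on this 1 cell line. By its title, the study uses the inhibitor as a model of beta cell dedifferentiation and asks about glucagon repression and insulin maturation.

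FoxO1 is a forkhead transcription factor that insulin signalling keeps out of the nucleus, and in beta cells it is known for its part in keeping the mature state. The 5 genes have no shared family. Fxyd7 encodes a small membrane protein that modulates the Na,K-ATPase and is known mainly from rodent brain. Lyve1 encodes a receptor for the matrix sugar hyaluronan and is used as a marker of lymphatic endothelium and of some tissue macrophages. Muc4 encodes a very large membrane mucin of epithelia whose extracellular part can bind the receptor ERBB2. Nme9 encodes a thioredoxin-domain protein of the nucleoside diphosphate kinase family, whose relatives include proteins of motile cilia. Grrp1, also named Fam110d, encodes a glycine and arginine rich protein whose role is little described.

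In the coordinates of the files, which match the GRCm38 annotation GENCODE M21, the genes lie on 4 chromosomes. Fxyd7 (ENSMUSG00000036578) spans chr7:31042513-31051467 on the minus strand and Lyve1 (ENSMUSG00000030787) spans chr7:110850607-110863239 on the minus strand. Muc4 (ENSMUSG00000079620) spans chr16:32735886-32782391 on the plus strand, Nme9 (ENSMUSG00000046242) spans chr9:99451475-99474751 on the plus strand, and Grrp1 (ENSMUSG00000050105) spans chr4:134251110-134254106 on the minus strand. Their longest coding sequences differ widely, with 240 bases in Fxyd7, 813 in Grrp1, 954 in Lyve1, 987 in Nme9 and 10410 in Muc4. Only the Muc4 span overlaps another annotated gene, Muc20 on the opposite strand, which had 5 counts over all 12 libraries.

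The RefSeq promoter table (GRCm38.p6) held 3 of the 5 genes, Grrp1, Muc4 and Nme9. The 250 bases before the start of Grrp1 and Muc4 are shown because both genes ranked high in both contrasts (number 6 and number 9 for Grrp1, number 12 and number 4 for Muc4, among all 16808 genes tested, FoxOi against DMSO first) and because the RefSeq and GENCODE starts coincide. The Nme9 window is not shown, since its RefSeq start lies 4768 bases from the GENCODE start of the gene. Capitals mark the match of a motif searched on both strands, and the lines run 5′ to 3′ on the strand of the gene, the first for chr4:134254107-134254356 (minus strand) and the second for chr16:32735636-32735885 (plus strand).
Grrp1: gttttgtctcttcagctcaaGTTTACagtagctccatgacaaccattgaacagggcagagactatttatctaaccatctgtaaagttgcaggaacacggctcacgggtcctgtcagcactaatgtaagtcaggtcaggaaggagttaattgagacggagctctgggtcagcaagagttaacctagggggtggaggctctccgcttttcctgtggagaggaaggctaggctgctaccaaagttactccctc
Muc4: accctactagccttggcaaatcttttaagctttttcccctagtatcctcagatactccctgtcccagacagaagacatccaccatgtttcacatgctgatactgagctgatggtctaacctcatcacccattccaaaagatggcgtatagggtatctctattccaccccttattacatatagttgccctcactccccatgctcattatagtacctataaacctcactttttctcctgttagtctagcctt
The motifs were the forkhead core GTAAACA, its shorter form GTAAAC, which every GTAAACA contains, and CAAAACA, the core of the insulin response element. The Grrp1 window held GTAAAC once, read on the opposite strand as GTTTAC from 230 to 225 bases before the start, and neither of the other motifs. None of the 3 was found in the Muc4 or Nme9 windows. Among 32851 RefSeq windows of the same length, 6.92% held GTAAAC, 3.17% held GTAAACA and 5.56% held CAAAACA, so a single short match of this kind is common.

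Depth ran from 10640485 counts (Loperamide replicate 1) to 19499216 counts (FoxOi replicate 3). All 12 markers of beta cells on the list used were detected in all 4 groups, with a summed level of 27186 to 31973 CPM in FoxOi_Loperamide, 34942 to 39738 CPM in FoxOi, 63473 to 63884 CPM in Loperamide and 61716 to 85299 CPM in DMSO libraries. CPM is the count per 1000000 of the TMM-scaled library size. Of 16808 genes with enough counts to test, edgeR's quasi-likelihood test called 40.9% for FoxOi against DMSO and 38.9% for FoxOi_Loperamide against Loperamide at an adjusted p under 0.05. Calls were thus widespread, and all 5 genes passed the low-count filter. Fxyd7, Muc4, Nme9 and Grrp1 passed it only through the groups without the inhibitor, so a member of that kind had to differ, while Lyve1 had enough counts in FoxOi as well. In bulk RNA, fewer cells that express a gene and less of its RNA per cell cannot be told apart.

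Fxyd7 was nearly lost in every library that received the inhibitor. It had 4, 6 and 1 counts in FoxOi_Loperamide and 3, 4 and 7 counts in FoxOi, against 27, 33 and 44 counts in Loperamide and 90, 69 and 54 counts in DMSO (replicates 1, 2 and 3 of each group). No inhibitor library reached the lowest library without it. The mean level was 0.251 ± 0.0961 CPM in FoxOi and 4.67 ± 0.953 CPM in DMSO libraries (SD, n = 3 each), so 5.37% was left and the log2 fold change was -4.16 ± 0.34 (SE). On loperamide it was 0.218 ± 0.157 CPM in FoxOi_Loperamide and 2.73 ± 0.376 CPM in Loperamide libraries, with 7.98% left and a log2 fold change of -3.61 ± 0.38. Compared within replicate numbers 1, 2 and 3, which the libraries of all groups share, 3.03%, 5.11% and 9.05% of the DMSO level was left in FoxOi. Per gene length Fxyd7 was the most abundant of the 5 in DMSO, at 6.70 ± 1.30 FPKM, above 48.4% of the genes tested there, and in FoxOi it stood at 0.357 ± 0.134 FPKM, above 7.11%.

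Lyve1 had the highest counts of the 5 and so the most precise values. Its counts were 13, 5 and 8 in FoxOi_Loperamide and 19, 19 and 19 in FoxOi, against 101, 110 and 119 in Loperamide and 170, 112 and 110 in DMSO. The inhibitor groups were low in all 6 libraries, and the FoxOi_Loperamide libraries were lower still than the FoxOi libraries, with no overlap between them. The mean was 1.04 ± 0.0650 CPM in FoxOi and 8.64 ± 2.01 CPM in DMSO, with 12% left and a log2 fold change of -3.05 ± 0.22. With both compounds it was 0.503 ± 0.198 CPM, against 8.78 ± 0.561 CPM in Loperamide, with 5.73% left and a log2 fold change of -4.08 ± 0.26. In FPKM, Lyve1 stood at 0.355 ± 0.0238 in FoxOi and 2.97 ± 0.661 in DMSO.

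Muc4 was the most variable of the 5 without the inhibitor. It had 0, 3 and 1 counts in FoxOi_Loperamide and 2, 6 and 2 in FoxOi, against 27, 53 and 27 in Loperamide and 57, 20 and 20 in DMSO. The library with 0 counts allows up to 0.163 CPM (3 counts). In CPM, DMSO replicate 1 lay above Loperamide replicates 1 and 3, while DMSO replicates 2 and 3 lay below all Loperamide libraries. The mean was 0.183 ± 0.127 CPM in FoxOi and 2.12 ± 1.33 CPM in DMSO, with 8.62% left and a log2 fold change of -3.49 ± 0.62. Within replicate numbers the share left in FoxOi was 3.19%, 26.5% and 6.98%, so number 2 showed the smallest fall. Without FoxOi replicate 2 the log2 fold change was -4.19, and without DMSO replicate 1 it was -2.87. It was 0.0828 ± 0.0956 CPM in FoxOi_Loperamide and 2.83 ± 1.08 CPM in Loperamide, with 2.93% left and a log2 fold change of -5.03 ± 0.71, which was -4.43 without FoxOi_Loperamide replicate 1 and -6.27 without FoxOi_Loperamide replicate 2. Because its coding sequence is so long, Muc4 was the lowest of the 5 per length, at 0.0160 ± 0.0112 FPKM in FoxOi and 0.186 ± 0.115 FPKM in DMSO.

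Nme9 counts were 6, 5 and 1 in FoxOi_Loperamide and 5, 2 and 2 in FoxOi, against 19, 26 and 19 in Loperamide and 45, 36 and 13 in DMSO. All inhibitor libraries lay below all others, and DMSO replicate 3 was the lowest of those. The level was 0.168 ± 0.106 CPM in FoxOi and 2.02 ± 0.980 CPM in DMSO, with 8.28% left and a log2 fold change of -3.58 ± 0.52 (-4.20 without FoxOi replicate 1). In FoxOi_Loperamide it was 0.233 ± 0.149 CPM, against 1.70 ± 0.310 CPM in Loperamide, with 13.7% left and a log2 fold change of -2.81 ± 0.52, the smallest fall of the 5 on loperamide.

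Grrp1 counts were 2, 2 and 1 in FoxOi_Loperamide and 3, 2 and 0 in FoxOi, against 30, 36 and 18 in Loperamide and 28, 33 and 16 in DMSO. The library with 0 counts allows up to 0.154 CPM. Replicate 3 was the lowest library of each of the 4 groups. The level was 0.0947 ± 0.0881 CPM in FoxOi and 1.67 ± 0.451 CPM in DMSO, with 5.66% left and a log2 fold change of -4.10 ± 0.56, which was -4.82 without FoxOi replicate 1 and -3.50 without FoxOi replicate 3. It was 0.0983 ± 0.0333 CPM in FoxOi_Loperamide and 2.28 ± 0.850 CPM in Loperamide, with 4.32% left and a log2 fold change of -4.41 ± 0.55.

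**Figure D1:**
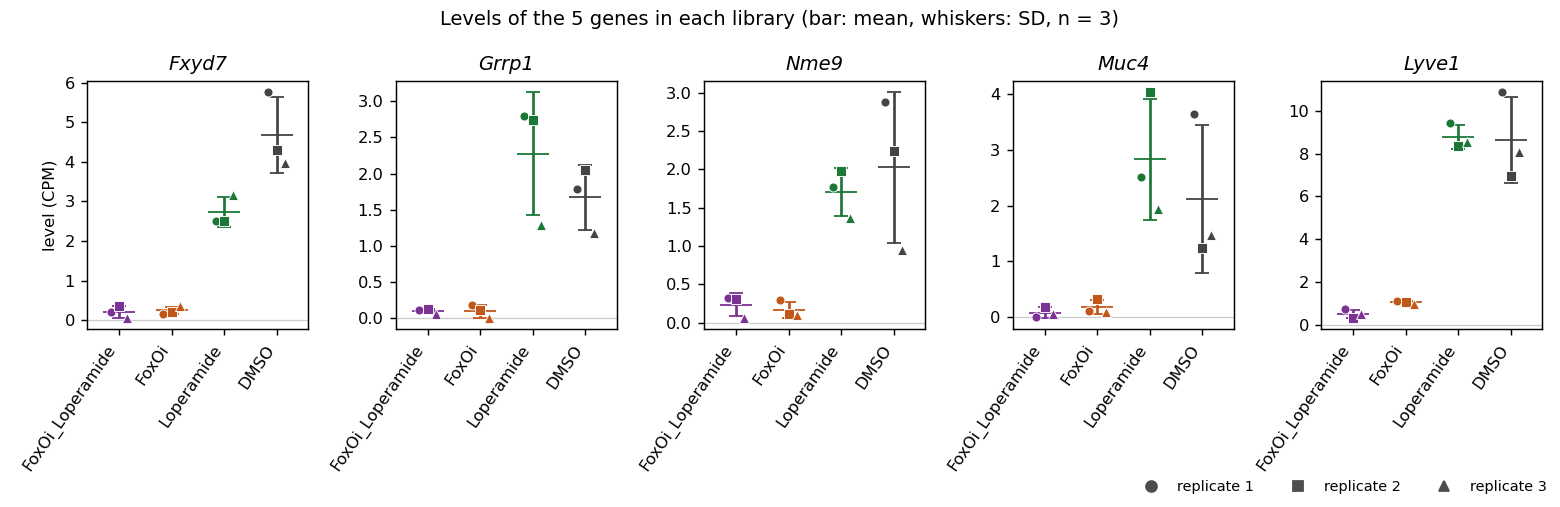
Level of each gene in CPM (vertical axis, linear, a scale of its own in each panel) in the 12 libraries by group. Symbols mark the replicate number, the bar is the mean and the whiskers the SD of 3 libraries; in each panel all 6 libraries with the inhibitor lie below all 6 without it.

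The groups with and without the inhibitor did not overlap for any of the 5 genes in either contrast, which the choice of genes fixes. For reference, all FoxOi libraries lay below all DMSO libraries for 24% of the genes tested, and all FoxOi_Loperamide libraries below all Loperamide libraries for 26.1%. The fall was called for 20.3% and 20.5% of genes in these contrasts, FoxOi against DMSO given first. The falls were ranked among called genes whose groups did not overlap and whose mean over the 12 libraries reached 1 CPM. Predicted genes, with symbols such as Gm plus digits or ending in Rik, were left out. Among the 2741 such genes for FoxOi against DMSO, Fxyd7 was the first, Grrp1 number 3, Nme9 number 4, Muc4 number 5 and Lyve1 number 20. Without these limits, among all genes tested, Fxyd7 was number 4. Baiap3, at number 2 with a log2 fold change of -4.12 ± 0.27, is not among the 5, and the gene just after Muc4 was Cdh23 at -3.47 ± 0.23. Among 2810 such genes on loperamide, Muc4 was number 2, Grrp1 number 3, Lyve1 number 4, Fxyd7 number 13 and Nme9 number 37. Sphk1 headed that order at -5.14 ± 0.38 and Baiap3 followed Lyve1 at -4.07 ± 0.26.

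**Figure D2:**
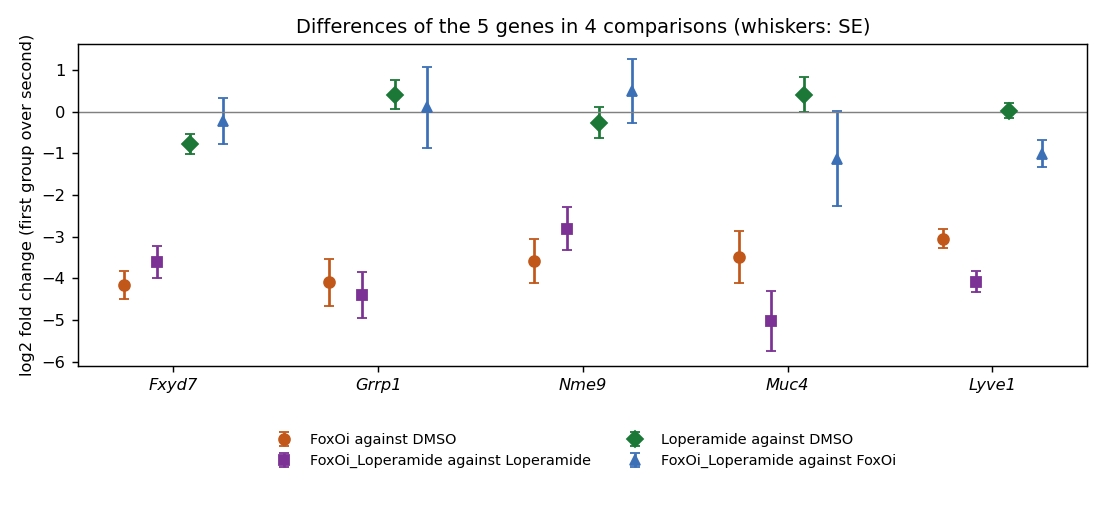
Log2 fold change of each gene (vertical axis, first group over second) in 4 comparisons, with the SE as whiskers. The 2 contrasts that add the inhibitor lie between -5.03 and -2.81, and the 2 that add loperamide between -1.13 and 0.50.

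For Loperamide alone a difference from DMSO was called for Fxyd7 and not for the other 4 genes. This comparison was not used to choose them, but it shares the Loperamide and DMSO libraries with the contrasts that were, so its p-values are not fully independent of the choice. Choice by a fall from DMSO favours high DMSO values, and choice by a fall from Loperamide favours high Loperamide values. The Fxyd7 call lies in the direction that the first of these favours. By edgeR's quasi-likelihood test 1 of the 5 was called lower, beside 15.8% of all genes tested (31.9% in either direction). Fxyd7 was that gene, at 2.52, 2.51 and 3.16 CPM in Loperamide, against 5.75, 4.29 and 3.96 CPM in DMSO. The groups did not overlap, as for 20.8% of all genes in this direction. The log2 fold change was -0.77 ± 0.24 (adjusted p = 0.0258), lower in 3 of 3 replicate numbers, with 58.4% of the DMSO level left. The call was lost without Loperamide replicate 1 (edgeR adjusted p = 0.077), Loperamide replicate 2 (0.0849) or DMSO replicate 1 (0.0954), and in limma on log2(FPKM + 0.1) (0.139), within a range of 0.00497 to 0.139 over all alternatives.

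For the other 4 genes no difference between Loperamide and DMSO was detected at this depth. Grrp1 differed by 0.41 ± 0.34 on the log2 scale (edgeR adjusted p = 0.393) and was higher in Loperamide within each of the 3 replicate numbers. Muc4 also differed by 0.41, with an SE of 0.42 (adjusted p = 0.492), and was higher in Loperamide for replicate numbers 2 and 3 but not 1. Nme9 differed by -0.27 ± 0.37 (adjusted p = 0.619) and Lyve1 by 0.02 ± 0.18 (adjusted p = 0.946). The Lyve1 values, 9.41, 8.36 and 8.56 CPM in Loperamide and 10.9, 6.97 and 8.07 CPM in DMSO, overlapped fully.

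Loperamide on top of the inhibitor went with less Lyve1. Here too 1 of the 5 genes was called lower, beside 15.1% of all genes (26.6% in either direction), and this comparison shares libraries with the contrasts behind the choice. Choice by a fall on loperamide favours low FoxOi_Loperamide values, the direction of the Lyve1 call, so its p-value is not independent of the choice. Lyve1 stood at 0.707, 0.313 and 0.488 CPM in FoxOi_Loperamide, against 1.10, 1.04 and 0.974 CPM in FoxOi. The groups did not overlap, as for 21.7% of all genes in this direction. The log2 fold change was -1.01 ± 0.33 (edgeR adjusted p = 0.0332), with 48.3% of the FoxOi level left. The call was lost without FoxOi_Loperamide replicate 2 (adjusted p = 0.127) or 3 (0.0853) and without FoxOi replicate 1 (0.0834), 2 (0.0753) or 3 (0.0552). It was also lost when only these 2 groups were fitted (0.0504) and in limma on log2(FPKM + 1) (0.191, or 0.333 with no filter), over a range of 0.0102 to 0.333 for all alternatives.

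The other 4 genes were too low in both inhibitor groups for this comparison to say much, with 0 to 7 counts in each library. Their log2 differences were -0.22 ± 0.56 for Fxyd7, 0.10 ± 0.97 for Grrp1, 0.50 ± 0.77 for Nme9 and -1.13 ± 1.15 for Muc4, with adjusted p between 0.516 and 0.955 in edgeR. From the lowest level to the highest, the order of groups was FoxOi_Loperamide, FoxOi, Loperamide and DMSO for Fxyd7, and FoxOi_Loperamide, FoxOi, DMSO and Loperamide for Lyve1 and Muc4. For Grrp1 it was FoxOi, FoxOi_Loperamide, DMSO and Loperamide, and for Nme9 FoxOi, FoxOi_Loperamide, Loperamide and DMSO. Apart from the Fxyd7 and Lyve1 calls, neighbours within the inhibitor groups and within the groups without it overlapped in these orders.

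Among the relatives of Fxyd7, the inhibitor had no common direction. Of 14 other FXYD family and Na,K-ATPase subunit genes, 8 had enough counts, and for FoxOi against DMSO 4 were called higher and 2 lower (20.7% and 20.3% of all genes). The median log2 fold change of the 8 was 0.38, against 0.01 for all genes tested. Fxyd6, another small modulator of the pump, fell to 10.01 ± 1.30 CPM in FoxOi, against 32.6 ± 4.76 CPM in DMSO, a log2 fold change of -1.70 ± 0.13 (edgeR adjusted p = 1.96e-07). It fell again on loperamide, to 9.23 ± 1.01 CPM in FoxOi_Loperamide, against 35.0 ± 2.79 CPM in Loperamide (-1.92 ± 0.14, adjusted p = 1.23e-07). Per length, Fxyd6 was the most abundant FXYD gene in these cells, at 5.51 ± 0.698 FPKM in FoxOi and 18.1 ± 2.46 FPKM in DMSO. Fxyd5, which lies next to Fxyd7 on chromosome 7, rose to 13.9 ± 2.97 CPM in FoxOi, against 4.50 ± 0.687 CPM in DMSO (1.62 ± 0.25, adjusted p = 0.000118). Fxyd2 was not called, at -1.41 ± 0.60.

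Subunits of the pump itself also moved both ways. The beta subunits Atp1b3 and Atp1b1 rose in FoxOi against DMSO, by log2 fold changes of 0.84 ± 0.08 (edgeR adjusted p = 1.87e-06) and 0.61 ± 0.10 (adjusted p = 0.000217). The beta subunit Atp1b2 fell, with a log2 fold change of -0.73 ± 0.16 (adjusted p = 0.00234). On loperamide 3 of the 8 were higher and 3 lower (18.4% and 20.5% of all genes), and the lower count dropped to 1 without FoxOi_Loperamide replicate 2 or 3, or without Loperamide replicate 3.

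Lyve1 is 1 of many hyaluronan genes. Of 23 listed genes for hyaluronan receptors, synthesis, breakdown and binding proteins, 15 were tested, and for FoxOi against DMSO 4 rose and 4 fell, near the share over all genes (20.7% and 20.3%). The higher count was 2 without DMSO replicate 1. Stab1, a scavenger receptor for hyaluronan, rose to 3.01 ± 0.371 CPM in FoxOi, against 0.253 ± 0.256 CPM in DMSO (log2 fold change 3.48 ± 0.47, edgeR adjusted p = 3.82e-05). Hapln1, a link protein that ties hyaluronan to proteoglycans, rose by 1.38 ± 0.17 (adjusted p = 1.47e-05), and its relative Hapln4 fell, at -0.63 ± 0.08 (adjusted p = 1.95e-05). Cd44, the best known hyaluronan receptor, was not called, at 25.2 ± 5.16 CPM in FoxOi and 22.3 ± 3.31 CPM in DMSO. On loperamide 2 of the 15 rose and 5 fell (18.4% and 20.5% of all genes). Stab1 was not called there, at 0.807 ± 0.384 CPM in FoxOi_Loperamide and 0.603 ± 0.101 CPM in Loperamide (0.38 ± 0.51, edgeR adjusted p = 0.592). Cd44 was then among those that fell, to 8.64 ± 1.37 CPM in FoxOi_Loperamide, against 19.8 ± 1.39 CPM in Loperamide (-1.20 ± 0.17, adjusted p = 5.75e-05), and so was Has1, a hyaluronan synthase (-2.01 ± 0.42, adjusted p = 0.00172).

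For Muc4, of 11 other mucin genes Muc1 alone had enough counts, and it was not called in either inhibitor contrast. It stood at 1.41 ± 0.213 CPM in FoxOi and 1.20 ± 0.221 CPM in DMSO (log2 fold change 0.24 ± 0.28, edgeR adjusted p = 0.512). Erbb2, which encodes the receptor that Muc4 can bind, was too low to test, with 2 to 9 counts in each library. Of the 8 tested ERBB receptor and ligand genes, 5 were called higher and 1 lower for FoxOi against DMSO, beside 20.7% and 20.3% of all genes. The ligand Areg was at 136 ± 27.8 CPM in FoxOi and 0.406 ± 0.170 CPM in DMSO (8.39 ± 0.21, adjusted p = 6.81e-12). The receptor Egfr fell to 20.6 ± 0.890 CPM in FoxOi, against 49.6 ± 1.89 CPM in DMSO (-1.26 ± 0.10, adjusted p = 2.92e-07). For FoxOi_Loperamide against Loperamide Areg was again higher (5.20 ± 0.30, edgeR adjusted p = 1.93e-08) and Egfr lower (-0.70 ± 0.10, adjusted p = 8.11e-05). The ligand Hbegf, higher without loperamide, was lower there (-0.59 ± 0.11, adjusted p = 0.000904). The ligands Ereg, Btc and Nrg3, also higher without loperamide, were not called on it.

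In the NME family 7 of 8 genes other than Nme9 were tested, and for FoxOi against DMSO 1 rose and 1 fell, no more than the share over all genes (20.7% and 20.3%). Each of these counts was 2 without DMSO replicate 1. Nme3 fell to 15.3 ± 1.04 CPM in FoxOi, against 32.0 ± 1.79 CPM in DMSO (log2 fold change -1.06 ± 0.10, edgeR adjusted p = 1.19e-06), and was also lower on loperamide (-0.83 ± 0.10, adjusted p = 1.75e-05). Nme6 rose, by 0.61 ± 0.10 and by 0.35 ± 0.10 in the 2 contrasts. Nme1 and Nme2 are close relatives, and whether reads were split between them was not tested, so their values are uncertain. On loperamide Nme1 was called higher (0.48 ± 0.12, edgeR adjusted p = 0.0056) and Nme2 was not called. Nme5, the relative known from motile cilia, was not called in either contrast, at -0.19 ± 0.19 and -0.04 ± 0.18.

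Motile cilium genes as a list were lower more often than higher. Of 15 tested genes, 6 were called lower and 1 higher for FoxOi against DMSO (20.3% and 20.7% of all genes). For FoxOi_Loperamide against Loperamide 7 were lower and 1 higher (20.5% and 18.4% of all genes). Dnah9, an outer arm dynein of motile cilia, fell to 2.51 ± 0.496 CPM in FoxOi, against 9.46 ± 0.805 CPM in DMSO (-1.92 ± 0.20, edgeR adjusted p = 3.82e-06). Rfx2, a transcription factor of ciliary genes, was at 10.7 ± 0.675 CPM in FoxOi and 18.3 ± 2.30 CPM in DMSO (-0.77 ± 0.12, adjusted p = 9.25e-05). Rsph4a, a radial spoke protein, went the other way, to 5.42 ± 0.511 CPM in FoxOi, against 0.497 ± 0.403 CPM in DMSO (3.40 ± 0.34, adjusted p = 2.11e-06). Foxj1, the master regulator of motile cilia, was not called in these contrasts.

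Of the FAM110 relatives of Grrp1, Fam110a and Fam110b had enough counts. Fam110b fell in both contrasts, to 11.1 ± 0.389 CPM in FoxOi, against 17.9 ± 4.85 CPM in DMSO (log2 fold change -0.69 ± 0.16, edgeR adjusted p = 0.00366), and to 14.0 ± 1.06 CPM in FoxOi_Loperamide, against 26.1 ± 2.72 CPM in Loperamide (-0.90 ± 0.16, adjusted p = 0.00053). Fam110a was not called without loperamide (-0.12 ± 0.10) and was higher on it (0.39 ± 0.10, adjusted p = 0.00739).

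**Figure D3:**
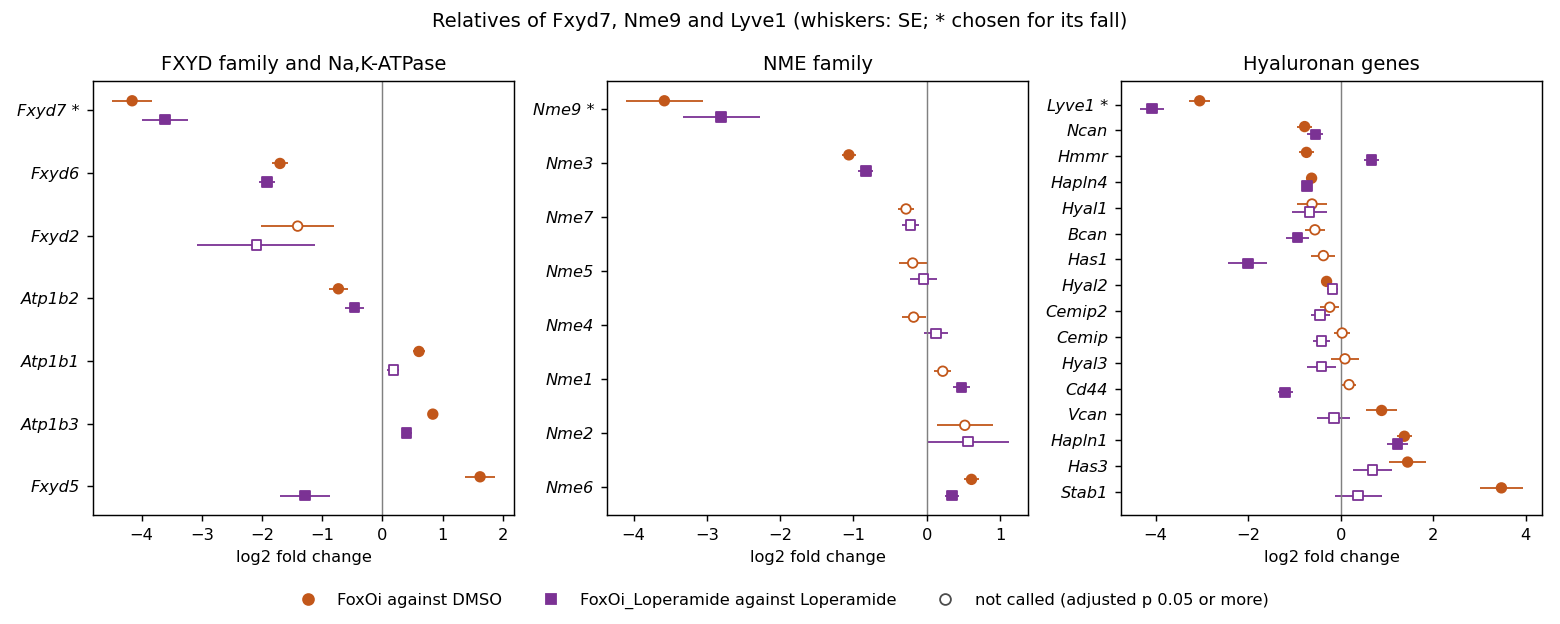
Log2 fold change (horizontal axis, first group over second, SE as whiskers) of relatives of Fxyd7, Nme9 and Lyve1 when the inhibitor was added to DMSO or to loperamide. Filled symbols passed the adjusted p threshold of 0.05, and the gene marked with a star was chosen for its fall; in each panel it lies to the left of its relatives, which spread to both sides of 0.

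The 3 nearest tested genes on each side of the 5 on their chromosomes make 30 neighbours, of which 7 were called higher and 4 lower for FoxOi against DMSO (20.7% and 20.3% of all genes), and 7 higher and 9 lower for FoxOi_Loperamide against Loperamide (18.4% and 20.5%). Their median log2 fold changes were 0.01 and 0.00. Among the neighbours of Grrp1, Extl1 rose to 12.5 ± 0.489 CPM in FoxOi, against 1.73 ± 0.512 CPM in DMSO (log2 fold change 2.84 ± 0.19, edgeR adjusted p = 4.93e-08). On 1 side of Lyve1, Adm, which encodes the peptide adrenomedullin, rose to 13.3 ± 3.22 CPM in FoxOi, against 0.928 ± 0.362 CPM in DMSO (3.81 ± 0.26, adjusted p = 5.29e-08). Ampd3, between Lyve1 and Adm, was at 1.15 ± 0.239 CPM in FoxOi and had 0 counts in every DMSO library. Esyt3, near Nme9, was the neighbour that fell most for FoxOi against DMSO, at -1.49 ± 0.14 (adjusted p = 1.29e-06).

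**Figure D4:**
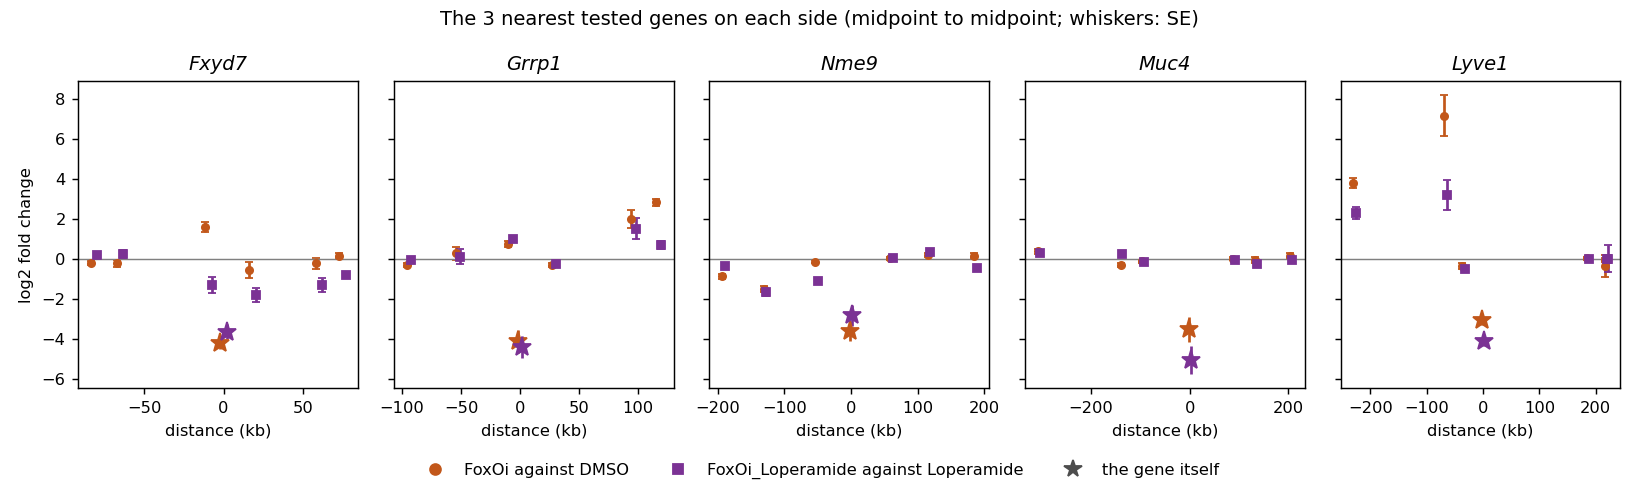
Log2 fold change (vertical axis, SE as whiskers) of the 3 nearest tested genes on each side of each gene, by distance between gene midpoints in kb, with the gene itself as a star at 0 kb (points of the 2 contrasts are set slightly apart sideways). The stars lie below all neighbours in each panel, and the highest point, at 7.18 beside Lyve1, is a fitted value for Ampd3, which had 0 counts in DMSO.

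Over the 12 libraries the 5 genes followed each other, with Pearson r of 0.882 (Fxyd7 and Muc4) to 0.955 (Fxyd7 and Lyve1) between pairs on log2(CPM + 1). These values describe libraries that share treatments and depth, and the choice of genes sets much of the likeness. The 12363 candidate genes all averaged 1 CPM or more, with predicted genes left out. Among them Lyve1 was most like Meg3 (r = 0.993), an imprinted long noncoding RNA, then Phactr1 (0.989) and Fxyd6 (0.988). Genes picked by r over these libraries largely have to share the group order, so their levels are description only. Meg3 was at 4.44 ± 1.09 CPM in FoxOi_Loperamide and 8.92 ± 1.69 CPM in FoxOi. It stood at 59.2 ± 1.05 CPM in Loperamide and 55.01 ± 9.38 CPM in DMSO. Fxyd7 was most like Ccdc8 (r = 0.986), Sorcs2 (0.985) and Rph3a (0.984), an effector of vesicle release. Sorcs2, a sorting receptor, was at 16.2 ± 1.07 CPM in Loperamide and 23.0 ± 2.38 CPM in DMSO. Nme9 was most like Gstm2 (0.989) and Ptov1 (0.983), and Grrp1 most like Cryba2 (0.982), Ampd2 (0.980) and Skida1 (0.976). For Muc4 the nearest were Gpr142 (0.964), a tryptophan receptor of islets, Nprl3 (0.959) and Tle6 (0.955).

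Markers of the cell types in which some of the 5 are usually found were also read. Of 6 lymphatic endothelial markers other than Lyve1, Prox1, Flt4 and Reln were tested, while Ccl21a had 0 counts in all libraries and Pdpn and Mmrn1 had at most 2 in any. The summed level of the list was 67.2 to 80.8 CPM in FoxOi_Loperamide, 63.2 to 85.7 CPM in FoxOi, 66.9 to 83.0 CPM in Loperamide and 80.4 to 97.1 CPM in DMSO. Its tested members did not move as 1. Flt4 was lower in FoxOi than in DMSO (log2 fold change -0.33 ± 0.11, edgeR adjusted p = 0.0315), a call lost without FoxOi replicate 1 (0.0778) or 3 (0.0559) or DMSO replicate 2 (0.0554), while Prox1 and Reln were not called. On loperamide Flt4 was higher (0.58 ± 0.12, adjusted p = 0.00112). Prox1 was lower there (-0.58 ± 0.18, adjusted p = 0.0216), a call lost without FoxOi_Loperamide replicate 1 (0.0863) or Loperamide replicate 3 (0.104). Reln was lower too (-1.13 ± 0.36, adjusted p = 0.0259), with adjusted p of 0.0607 to 0.101 without FoxOi_Loperamide replicate 2 or 3 or Loperamide replicate 1 or 3. The part of these genes in the Lyve1 result was not tested. The 6 blood endothelial markers summed to 0.305 to 1.87 CPM over all libraries. The 8 macrophage markers, of which 2 were tested, summed to 0.732 to 1.25 CPM in FoxOi_Loperamide and 12.2 to 16.9 CPM in FoxOi, against 1.49 to 1.82 CPM in Loperamide and 5.60 to 7.26 CPM in DMSO, so the sum was higher in FoxOi than in DMSO but lower in FoxOi_Loperamide than in Loperamide, while Lyve1 was lower in both. F13a1 made up most of this sum, at 13.3 ± 2.08 CPM in FoxOi and 5.63 ± 0.787 CPM in DMSO (edgeR adjusted p = 9.03e-05). It was not called on loperamide, at 0.758 ± 0.193 CPM in FoxOi_Loperamide and 1.25 ± 0.495 CPM in Loperamide. Csf1r, the other tested marker, was not called in either contrast. Between 1 and 4 of the 8 macrophage markers had 0 counts in each group, and their part in the Lyve1 result was not tested.

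The summed neuronal, duct and motile cilium markers were lower with the inhibitor, though single members went the other way, and their part in the results for Fxyd7, Muc4 and Nme9 was not tested. All 8 neuronal markers were tested, and their sum was 487 to 527 CPM in FoxOi_Loperamide and 489 to 518 CPM in FoxOi, against 623 to 684 CPM in Loperamide and 665 to 736 CPM in DMSO. For FoxOi against DMSO 4 of the 8 were called lower, beside 20.3% of all genes. For FoxOi_Loperamide against Loperamide 4 were lower and 1 higher, beside 20.5% and 18.4% of all genes. The higher one was Slc17a6 (1.20 ± 0.20, edgeR adjusted p = 0.000298). Of 8 duct and mucous markers Krt7 alone was tested and made up nearly all of the sum, while Krt19 had 9 counts over the FoxOi libraries and 0 in DMSO, and Tff3 had 34 in FoxOi and 17 in DMSO. The sum of the list was 117 to 170 CPM in FoxOi_Loperamide and 126 to 163 CPM in FoxOi, against 166 to 226 CPM in Loperamide and 249 to 339 CPM in DMSO, with FoxOi_Loperamide and Loperamide overlapping. The motile cilium list likewise summed to 76.8 to 83.9 CPM and 75.3 to 82.9 CPM in the same inhibitor groups, against 127 to 130 CPM in Loperamide and 109 to 115 CPM in DMSO.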

How the data were processed

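The authors deposited raw counts per gene and FPKM values for 12 libraries of 4 groups. Per the labels' protocols, DNase-treated RNA gave stranded mRNA libraries, sequenced from 1 end for 50 bases. STAR 2.7.5a, Picard 2.19.2 and DESeq2 stand in the submitters' processing notes. The sources used here do not give the counting tool or its strand setting. The labels do not say whether libraries come from separate cultures, so p-values measure only the spread between these libraries, which may be technical.

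Genes were kept with edgeR 4.0.16 (R 4.3.3) by filterByExpr (minimum count 10, minimum total 15), leaving 16808. Libraries were scaled with TMM, and a robust quasi-likelihood model with group as its only term was fitted to all 12, with Benjamini-Hochberg adjustment over all genes and calls at 0.05. Log2 fold changes use a prior count of 0.125, and SE is the absolute log2 fold change over the square root of F. Levels of different genes were compared only in FPKM. Depth sets a floor of 3 counts in a library with 0, and floors cover counting error only. The fits were tested on simulated data, with changed genes drawn from all levels. For Loperamide against DMSO, 35 of 67 genes changed 1.5-fold were called, 54 of 67 changed 2-fold and 60 of 66 changed 4-fold. For FoxOi_Loperamide against FoxOi these were 32 of 67, 56 of 67 and 65 of 66. False calls were 7 and 13 in the 2 comparisons.

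The 5 genes and all gene lists were chosen with earlier results of these data known. Named genes are the 5, the tested members of their families, the hyaluronan genes, genes with the smallest adjusted p of other lists, the 3 nearest tested genes on each side, the 3 most alike over the 12 libraries and the largest falls; others that stand out in a figure or count were named after their values were seen. Same-numbered libraries share a code in the labels and deviated together, with correlations over genes of 0.124 to 0.643 in the 4 comparisons. The numbers were taken as pairing the libraries only in the values within replicate numbers and in the replicate block. The main fit ignored this pairing, so its SE and p-values are those of unpaired groups. Alternatives were size factors, no filter, DESeq2 1.42.0, limma 3.58.1 on log2 FPKM with pseudocounts 0.1 and 1, the replicate block, fits of 2 groups, and leaving out each library. Some genes that these rules name are not reported here, and list counts cover all tested members.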

Additional observations from a re-analysis of the deposited data

Results flagged for a closer look

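The effect of the inhibitor on 4 of the 115 named genes examined was called in opposite directions with and without loperamide. The difference between the effects was tested in the same edgeR fit, a test chosen after the values were seen. Genes with opposite calls nearly had to differ in it, so its p-values for them add no independent support. Over all genes this test called 1594 of 16808. For Fxyd5 the log2 effect was -1.29 with loperamide and 1.62 without, a difference of -2.91 ± 0.48 (SE, adjusted p = 0.00133). The fall with loperamide was not called without FoxOi_Loperamide replicate 2 (adjusted p = 0.0828) or 3 (0.0527), without Loperamide replicate 1 (0.0916) or 3 (0.0789), or in limma on log2(FPKM + 1) (0.0866, or 0.187 with no filter). For Hmmr, a hyaluronan receptor that is also a mitotic protein, the effect was 0.66 with loperamide and -0.74 without, a difference of 1.40 ± 0.22 (adjusted p = 0.00101). For Hbegf, a ligand of the EGF receptor, it was -0.59 with loperamide and 0.50 without, a difference of -1.09 ± 0.16 (adjusted p = 5e-04). For Flt4, a receptor of lymphatic endothelium, it was 0.58 with loperamide and -0.33 without, a difference of 0.90 ± 0.16 (adjusted p = 0.00232), and the call without loperamide was lost when FoxOi replicate 1 or 3 or DMSO replicate 2 was left out.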

How the results depend on the processing

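For the 5 genes, 105 recomputed values of the inhibitor contrasts moved by less than the spread between replicates and 35 by more, all in the same direction. The largest moves came with limma on log2(FPKM + 1), where Muc4 was -0.22 for FoxOi against DMSO and -0.31 on loperamide, and Grrp1 -1.12 and -1.36. Of their values in the other comparisons 116 kept their direction and side of the threshold, 12 lost the call and 8 changed sign. Over all 5423 recomputed values 4989 held. With the replicate block, edgeR called 8179 genes for Loperamide against DMSO (5370 without it) and 7504 for FoxOi_Loperamide against FoxOi (4465 without it), and the block changed no call of the 5 genes. Fxyd7 in Loperamide against DMSO was -0.75 in limma on log2(FPKM + 0.1). Lyve1 in FoxOi_Loperamide against FoxOi was -0.21 in limma on log2(FPKM + 1), with and without the filter, a scale that shrinks low genes, and -1.01 when only the 2 groups were fitted. With each library left out in turn, the log2 fold change for Loperamide against DMSO ran from -0.90 to -0.62 for Fxyd7, from -0.61 to 0.032 for Nme9, from -0.13 to 0.20 for Lyve1, from 0.052 to 1.04 for Muc4 and from 0.20 to 0.71 for Grrp1. For FoxOi_Loperamide against FoxOi it ran from -0.79 to 0.19 for Fxyd7, from -0.49 to 0.83 for Grrp1, from -1.35 to -0.77 for Lyve1, from -2.37 to -0.43 for Muc4 and from 0.17 to 1.13 for Nme9. The causes were not tested. The counts of 0 to 7 in the inhibitor libraries limit Fxyd7, Grrp1, Nme9 and Muc4, whose differences between those groups have an SE of 0.56 or more.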

Other observations

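Of 31 FoxO family and FoxO target genes listed, 26 were tested, and they moved both ways when the inhibitor was added. For FoxOi against DMSO 10 were called lower and 6 higher (20.3% and 20.7% of all genes), with a median log2 fold change of -0.14. Sesn1, a stress-induced regulator of growth signalling, fell to 14.6 ± 0.802 CPM in FoxOi, against 29.8 ± 3.47 CPM in DMSO (edgeR adjusted p = 2.32e-06). Cdkn1a, which encodes the cell cycle inhibitor p21, rose to 492 ± 64.2 CPM in FoxOi, against 91.4 ± 13.6 CPM in DMSO (adjusted p = 4.38e-09), and Klf6 rose to 52.5 ± 5.99 CPM, against 12.9 ± 2.40 CPM (adjusted p = 1.31e-07). For FoxOi_Loperamide against Loperamide 13 were lower and 4 higher (20.5% and 18.4% of all genes). Fbxo32, a ubiquitin ligase of muscle wasting, was then at 6.73 ± 0.618 CPM in FoxOi_Loperamide and 31.3 ± 4.71 CPM in Loperamide (-2.21 ± 0.14, adjusted p = 5.34e-08). For Loperamide against DMSO 15 were called higher, beside 16.1% of all genes.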
